A study of Rattus norvegicus with 10 samples.

Results

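The DNA replication and S-phase entry genes are 41 genes that assemble, run and supply the replication fork. They were chosen by symbol. A gene was measured where a probe set of the array carried its symbol alone in the platform annotation, and its brightest probe set over all 10 arrays gave its value. Of the 41 genes, 38 had such a probe set, and all 38 lay above the filter on dim probe sets, among 12255 genes tested in all. Cdc6, Gins2 and Rrm2 lacked one, and their levels are not analysed here.

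The samples were 5 final and 5 basal samples of 5 mammary tumors of female Sprague-Dawley rats. A final sample was taken at 19 weeks of age, at sacrifice in the 7th week after the biopsy, following adriamycin at 1 mg/kg per week for 6 weeks through the tail vein. A basal sample was a needle biopsy at 12 weeks of age, before any adriamycin. All tumors, chosen by the submitters at Bloom-Richardson grade II, had been induced with a single oral dose of 7,12-dimethylbenz(a)anthracene (DMBA) at 100 mg/kg. Both samples of a tumor carried the same code (09I1, 11D2, 12I1, 29I1 or 43D1), so the groups were paired. Whether any of the 5 tumors shared a rat is not given in the sources used here, so p-values measure only the spread between these tumors. The samples hold no untreated tumor at 19 weeks, so treatment and age cannot be told apart. The labels describe the final sample as the total tumor and the design text as a needle sample, and the title codes of final and basal samples are numbered in separate stretches. If these codes mark array batches, batch and group cannot be told apart. The comparison asks how transcripts differed within a tumor between the treated and the untreated sample.

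Before a cell enters S phase, the origin recognition complex together with Cdc6 and Cdt1 loads the MCM helicase onto DNA, and cyclin E with its kinase releases E2F transcription factors, which switch on most of the genes described here. At firing, Cdc45 and GINS join MCM to form the active helicase. Polymerase alpha with primase starts each strand, the clamp loader RFC places the ring-shaped clamp PCNA, and polymerases delta and epsilon extend the strands on nucleotides supplied by ribonucleotide reductase and thymidylate synthase. Because this set is transcribed in cycling cells, its level in a tumor is commonly read as a measure of proliferation. Adriamycin (doxorubicin) is an anthracycline that traps topoisomerase II on DNA.

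The start-site sequences are given first because E2F sites are the known shared element of these genes. RefSeq windows of the GRCr8 assembly, from 250 bases before to 50 after an annotated start, were held for 35 of the 41 members. They were searched on both strands for the 4 words of the E2F consensus, TTTCCCGC, TTTCGCGC, TTTGCCGC and TTTGGCGC. At least 1 word was found in 15 of the 35 members (42.9%), against 651 of all 27457 genes with a window (2.37%). All 5 members of the MCM helicase with a window (Mcm2, Mcm3, Mcm5, Mcm6 and Mcm7) held a word. Other roles held fewer, with 2 of 6 for origin licensing and firing, 1 of 5 for the clamp and its loader and 3 of 7 for polymerases and primase. The counts were 2 of 4 for Okazaki maturation and single-strand binding, 1 of 4 for nucleotide supply, 1 of 3 for chromatin copying and 0 of 1 for S-phase entry. In 12 of the 15 members a word began within 60 bases of the start. The windows of the MCM genes Mcm5 and Mcm6 and of the GINS gene Gins1 are printed up to the base before the start, 5′ to 3′ on the strand of the gene, with the words in capitals. Where words on opposite strands overlap, the capitals run on over 12 bases.
Mcm5 (chr19:13488563-13488812, plus strand): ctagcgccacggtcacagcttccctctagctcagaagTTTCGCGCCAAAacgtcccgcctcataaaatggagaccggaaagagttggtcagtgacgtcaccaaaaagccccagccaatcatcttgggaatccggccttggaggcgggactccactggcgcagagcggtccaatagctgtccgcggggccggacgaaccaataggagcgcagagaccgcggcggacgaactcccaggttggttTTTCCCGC
Mcm6 (chr13:42404353-42404602, minus strand): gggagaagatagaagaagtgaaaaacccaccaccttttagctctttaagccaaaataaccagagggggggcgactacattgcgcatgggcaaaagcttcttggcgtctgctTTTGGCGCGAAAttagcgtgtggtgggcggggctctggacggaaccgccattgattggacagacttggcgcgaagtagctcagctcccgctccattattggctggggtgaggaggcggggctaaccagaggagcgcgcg
Gins1 (chr3:160184670-160184919, plus strand): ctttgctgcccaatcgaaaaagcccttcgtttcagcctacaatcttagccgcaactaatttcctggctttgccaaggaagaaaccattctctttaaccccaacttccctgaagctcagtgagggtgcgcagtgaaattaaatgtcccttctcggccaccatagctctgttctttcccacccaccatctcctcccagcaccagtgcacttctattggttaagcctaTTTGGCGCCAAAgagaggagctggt

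For 8 of the other 12 members that held a word, the site nearest the start is shown with its flanks, again 5′ to 3′ on the strand of the gene. Mcm2 has overlapping words on both strands right before its start, Rfc3 has a word on each strand, and the others show a single word. Lig1, Pola1, Pole2 and Rpa2 also held a word and are not printed.
Mcm2 (chr4:122918091-122918114, minus strand): cccggtTTTCGCGCGAAAacccgt
Mcm3 (chr9:30733739-30733758, minus strand): tccgtgGCGGGAAAacttgg
Mcm7 (chr12:22163217-22163236, minus strand): acgacgTTTCGCGCcaattt
Cdt1 (chr19:67529250-67529269, plus strand): aaaattGCGCGAAAtccgcg
Rfc3 (chr12:5836559-5836588, plus strand): gcagccTTTCGCGCtcGCGGGAAAactcgt
Pole (chr12:52053651-52053670, minus strand): gagagcGCGCCAAAttttcc
Tyms (chr9:120776107-120776126, minus strand): gcgggtTTTGGCGCcgacta
Uhrf1 (chr9:1223081-1223100, plus strand): gtcgggTTTCGCGCgccctg

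The word TTTCGCGC was found in 9 member genes and in 0.326% of all 33469 windows, and TTTGGCGC in 8 member genes and 0.493% of windows. TTTCCCGC was found in 5 member genes (0.974% of windows) and TTTGCCGC in 1, Rpa2 (0.415% of windows). Among other genes of the cell cycle, a word was found in 15 of 29 further replication genes, in 4 of 16 further G1/S regulators and in 1 of 21 mitosis genes with a window. A match describes the letters of the window and was not set against any binding data.

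**Figure D1:**
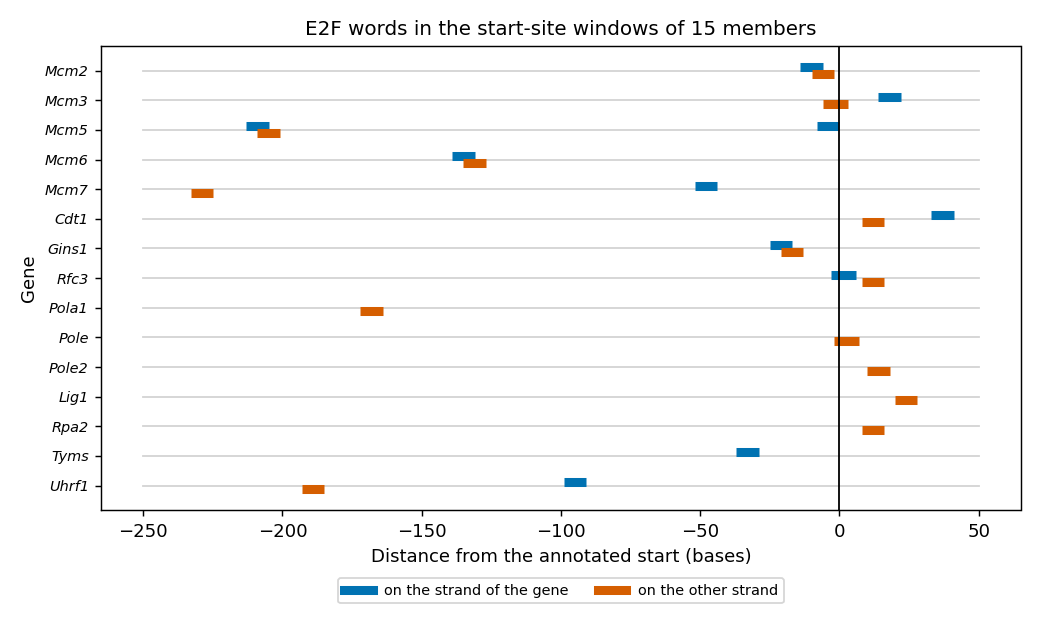
Position of each E2F word (bar) in the windows of the 15 members that held one, by distance in bases from the annotated start (vertical line). Bars above a gene's line lie on its own strand and bars below on the other strand, and in 12 of the 15 genes a word begins within 60 bases of the start.

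Across the 5 tumors together, no replication gene passed the test. With limma on final minus basal, paired by tumor, 0 of the 38 members had an adjusted p under 0.05, against a background of 0% of the 12255 genes, and 0 members had an unadjusted p under 0.05, against 2.88% of genes. The median change over the 38 members was -0.11 log2 units, beside 0.014 over all tested genes, and 31 of the 38 members had a mean change below 0 (47.3% of all genes did). The methods' paired t-test also called 0 members after Benjamini-Hochberg adjustment. At an unadjusted p under 0.05 it called 1 of the 38 members, Rpa1, and 1081 of all 23281 tested probe sets.

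The values behind these means were far from uniform. In 09I1, 37 of 38 members were higher in the final than in the basal array (58.6% of all genes were), and 31 by at least 1 log2 unit, where the share of all genes was 12.2%. In 29I1 all 38 members were lower in the final array (54.3% of all genes were), 25 of them by at least 1 unit (5.83% of all genes). In 43D1 likewise all 38 were lower (51.1% of all genes), 17 by at least 1 unit (2.93% of all genes). In 11D2 and 12I1 none of the 38 members differed by 1 unit in either direction. Of all genes, 3.48% were that much higher and 1.19% lower in 11D2, and 1.96% higher and 2.23% lower in 12I1. The numbers there were 29 of 38 lower in 11D2 (52.9% of all genes) and 30 of 38 higher in 12I1 (56.9% of all genes). Median changes were 1.56 for 09I1, -0.12 for 11D2, 0.13 for 12I1, -1.23 for 29I1 and -0.96 for 43D1, beside 0.15 for 09I1, -0.015 for 11D2, 0.050 for 12I1, -0.038 for 29I1 and -0.0090 for 43D1 over all tested genes. Higher in 09I1 and lower in both 29I1 and 43D1 were 37 of 38 members (22.5% of all genes), the exception being Rpa1. By at least 1 unit in each of these 3 tumors the pattern held for 15 members, against 0.922% of all genes. Each tumor gave 1 array of each kind, so these within-tumor differences have no test. These are bulk samples, in which fewer cycling cells and less of these transcripts per cell cannot be told apart.

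**Figure D2:**
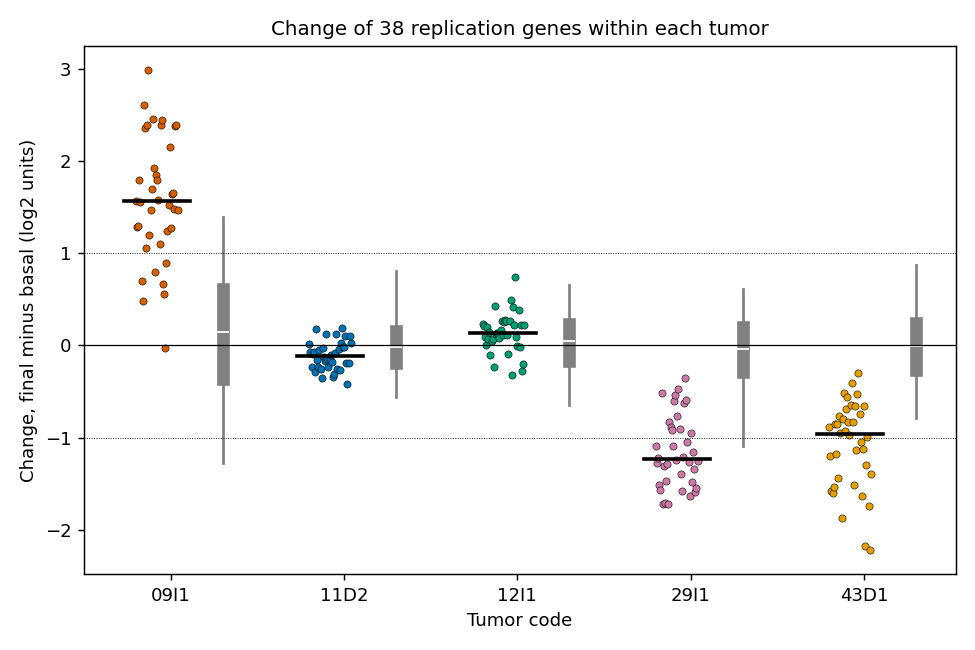
Change of each of the 38 members (points) in log2 units, final minus basal, by tumor code, with the median as a black bar. The grey bar and line beside each set span the middle 50% and the 5th to 95th percentiles of all 12255 genes. The points lie mostly above 1 in 09I1, near 0 in 11D2 and 12I1, and below 0 in 29I1 and 43D1.

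The final array of 09I1 stood apart over all probe sets. It correlated with the others at a median of 0.938, and each of the remaining 9 arrays at 0.975 to 0.984. The difference between its 3′ and 5′ control probe sets for beta-actin, a measure that is high in partly degraded RNA, was 2.61 log2 units, and 0.72 to 0.96 elsewhere. Changes over all tested probe sets had an SD of 0.89 for 09I1, and of 0.47 to 0.58 for each of the others. The part of RNA quality in the 09I1 values was not tested.

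The sign of the mean depended on which tumor was left out. Without 09I1, all 38 members had a mean change below 0 (51.6% of all genes did), with a median of -0.56. Without 29I1 only 6 of the 38 were below 0, with a median of 0.095. Without 43D1 only 7 of the 38 members were below 0, with a median of 0.11 (shares of all genes not given here for either). With 09I1 left out, none passed in limma after adjustment over all probe sets (background 0%), and the smallest adjusted p among members was 0.546, for Cdc45. At an unadjusted p under 0.05 there were 10 members, all lower, against 3.45% of all genes. They were Mcm4, Mcm5, Mcm7, Orc6, Cdt1, Cdc45, Pole, Rpa1, Chaf1a and Ccne1. Lower in all 4 remaining tumors were 7 members, against 7.96% of all genes. Leaving out 11D2, 12I1, 29I1 or 43D1 instead gave 0 members at an unadjusted limma p under 0.05. Of 23281 probe sets, 608 to 1076 had such a p in these fits.

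The arrays fell in a similar order for most members. Among the 5 final arrays, 43D1 was the lowest in 35 of 38 members (21.3% of all genes) and 09I1 the highest in 32 (44.7%). Among the 5 basal arrays, 09I1 was the lowest in 36 (27.1%) and 29I1 the highest in 37 (23.1%). Over all 10 arrays, final 43D1 was the lowest in 28 members (10.3% of all genes) and basal 09I1 in 9 (13.9%), while the highest was final 09I1 in 25 (35.1%) and basal 29I1 in 13 (10.5%). Rpa1 supplied the remaining lowest array, final 09I1. Final and basal values overlapped in all 38 members (0.84% of all genes had groups that did not). The SD of the change over the 5 tumors reached 1 log2 unit in 24 of 38 members, against 8% of all genes.

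**Figure D3:**
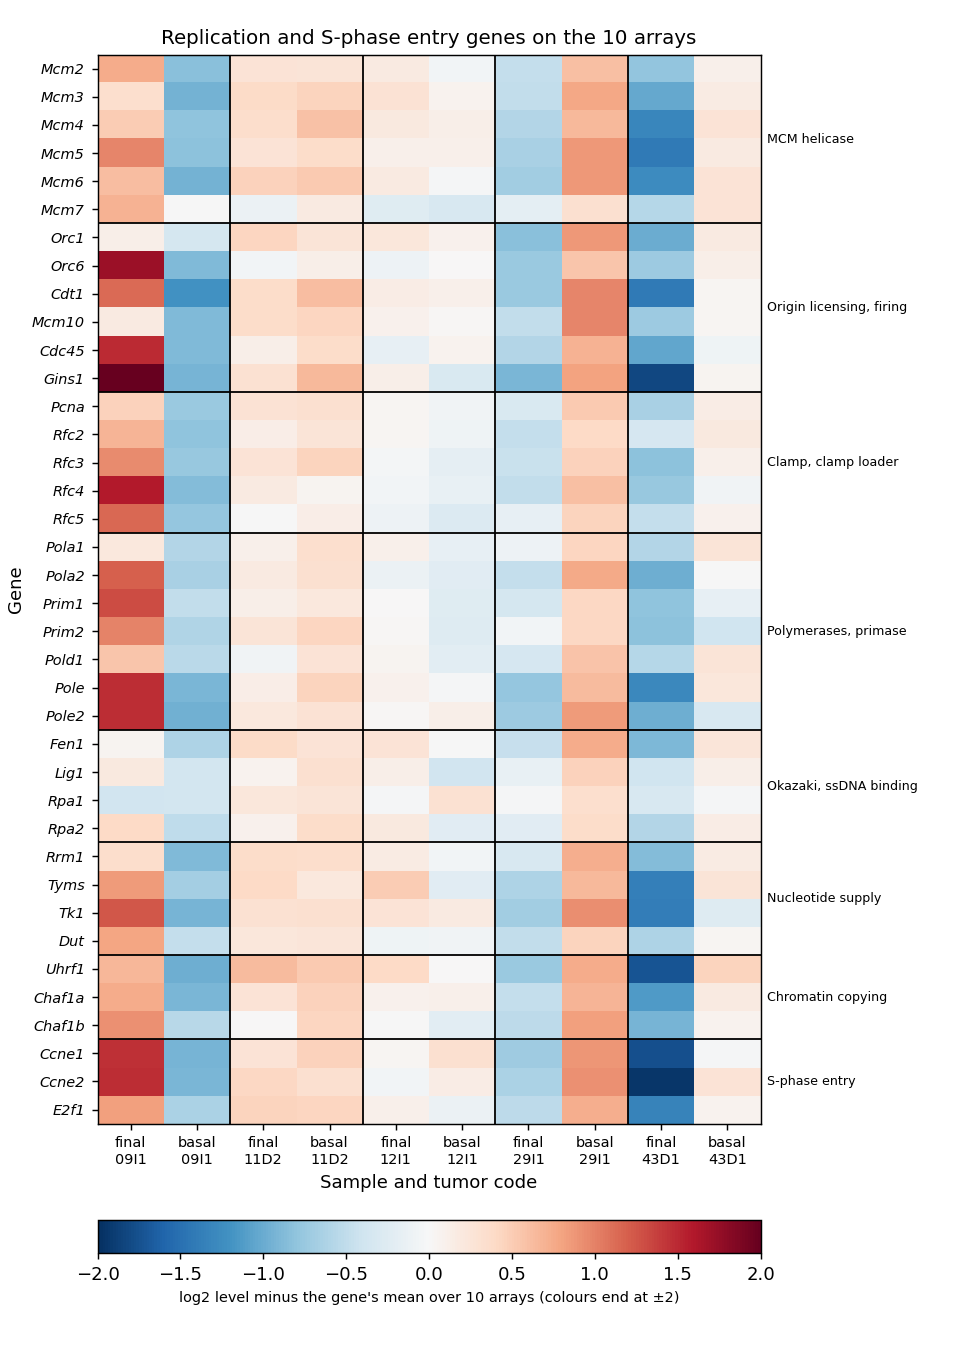
Level of each member on each array, as its log2 value minus the gene's mean over the 10 arrays, with each tumor's final array left of its basal array and genes grouped by role. Red is above and blue below the gene's mean. Final 09I1 and basal 29I1 are red for nearly all genes, and basal 09I1, final 29I1 and final 43D1 are mostly blue.

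The MCM helicase (Mcm2 to Mcm7), the ring that unwinds DNA, had median changes of 1.43 for 09I1, -0.079 for 11D2, 0.14 for 12I1, -1.25 for 29I1 and -1.36 for 43D1. Mcm6 had log2 levels of 9.14 for 09I1, 8.99 for 11D2, 8.70 for 12I1, 7.83 for 29I1 and 7.27 for 43D1 in final samples, against 7.58 for 09I1, 9.05 for 11D2, 8.50 for 12I1, 9.40 for 29I1 and 8.80 for 43D1 in basal samples. Its highest value came from a basal array and its lowest from a final one, and the ranges overlapped. The changes were 1.56 for 09I1, -0.068 for 11D2, 0.20 for 12I1, -1.56 for 29I1 and -1.53 for 43D1, with a mean of -0.28 ± 0.46 (SE) and limma adjusted p = 0.977. Mcm2 measured 9.45 for 09I1, 8.99 for 11D2, 8.89 for 12I1, 8.23 for 29I1 and 7.93 for 43D1 after treatment and 7.88 for 09I1, 8.97 for 11D2, 8.66 for 12I1, 9.32 for 29I1 and 8.81 for 43D1 before it. For this subunit the lowest of the 10 values was basal 09I1 and the highest was final 09I1, so a single tumor spanned the whole range. The mean change of Mcm2 was -0.031 ± 0.37 (SE), limma adjusted p = 0.996.

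Mcm4 had the smallest p of the ring, with levels of 8.92 for 09I1, 8.77 for 11D2, 8.62 for 12I1, 7.84 for 29I1 and 7.12 for 43D1 in final and 7.62 for 09I1, 9.01 for 11D2, 8.54 for 12I1, 9.06 for 29I1 and 8.69 for 43D1 in basal samples. Its mean change was -0.33 ± 0.40 (SE), with limma adjusted p = 0.977, and it was lower in 3 of 5 tumors. Mcm7 varied the least of the ring, at 11.33 for 09I1, 10.52 for 11D2, 10.39 for 12I1, 10.44 for 29I1 and 10.06 for 43D1 in final samples against 10.63 for 09I1, 10.82 for 11D2, 10.32 for 12I1, 10.95 for 29I1 and 10.91 for 43D1 in basal samples. Here 12I1, not 09I1, had the lowest basal value. The changes of Mcm7 were 0.70 for 09I1, -0.29 for 11D2, 0.074 for 12I1, -0.51 for 29I1 and -0.86 for 43D1, smaller than those of Mcm6 in 09I1, 29I1 and 43D1. Mcm3 and Mcm5 had the same signs as Mcm6 in these tumors, with changes of 1.28 and 1.79 in 09I1, -1.27 and -1.51 in 29I1 and -1.20 and -1.60 in 43D1.

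Genes of origin licensing and firing had group medians of 2.37 for 09I1, -0.20 for 11D2, 0.056 for 12I1, -1.59 for 29I1 and -1.06 for 43D1, further from 0 than those of the MCM helicase in 09I1, 11D2 and 29I1 and closer to 0 in 12I1 and 43D1. Gins1, a GINS subunit, had the largest range of any member, and is described for that reason. It measured 8.53 for 09I1, 6.78 for 11D2, 6.60 for 12I1, 5.56 for 29I1 and 4.66 for 43D1 in final samples and 5.55 for 09I1, 7.13 for 11D2, 6.17 for 12I1, 7.28 for 29I1 and 6.53 for 43D1 in basal samples. In 09I1 the final level was 7.92 times the basal level on the linear scale, while it was 3.29-fold lower in 29I1 and 3.66-fold lower in 43D1. Cdt1, which loads MCM, had changes of 2.36 for 09I1, -0.24 for 11D2, 0.044 for 12I1, -1.71 for 29I1 and -1.44 for 43D1. Cdc45, which activates the helicase, was at 2.39 in 09I1, -1.28 in 29I1 and -0.95 in 43D1. It was lower in 4 of 5 tumors. Orc6, of the origin recognition complex, had 2.60, -1.30 and -0.85 in the same 3 tumors.

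Orc1, the largest origin recognition subunit, was measured close to the filter on dim probe sets, with levels of 4.24 for 09I1, 4.55 for 11D2, 4.35 for 12I1, 3.28 for 29I1 and 3.12 for 43D1 in final and 3.76 for 09I1, 4.38 for 11D2, 4.20 for 12I1, 4.99 for 29I1 and 4.30 for 43D1 in basal samples. Final 29I1, final 43D1 and both 09I1 samples were dimmer than the lower quartile of their own arrays, a range in which array differences are imprecise. Its mean change of -0.42 ± 0.34 (SE) was the most negative of all members and did not pass (limma adjusted p = 0.977). Mcm10, a firing factor, had 5.58 for 09I1, 5.77 for 11D2, 5.48 for 12I1, 4.90 for 29I1 and 4.67 for 43D1 in final and 4.52 for 09I1, 5.82 for 11D2, 5.42 for 12I1, 6.37 for 29I1 and 5.43 for 43D1 in basal samples. Its highest value was basal 29I1, and its mean change was -0.23 ± 0.34 (SE).

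The clamp Pcna and its loader had smaller differences in 29I1 and 43D1, with medians of 1.69 for 09I1, -0.12 for 11D2, 0.13 for 12I1, -0.89 for 29I1 and -0.69 for 43D1. Pcna, which tethers polymerases to DNA, was 11.89 for 09I1, 11.72 for 11D2, 11.48 for 12I1, 11.13 for 29I1 and 10.79 for 43D1 in final samples, against 10.69 for 09I1, 11.75 for 11D2, 11.36 for 12I1, 11.96 for 29I1 and 11.59 for 43D1 in basal samples. The group means were 11.40 ± 0.45 in final and 11.47 ± 0.49 in basal samples (SD, n = 5 each), a difference of -0.068 ± 0.29 (SE) with limma adjusted p = 0.983. Rfc4 had levels of 9.91 for 09I1, 8.51 for 11D2, 8.27 for 12I1, 7.84 for 29I1 and 7.57 for 43D1 in final and 7.46 for 09I1, 8.38 for 11D2, 8.18 for 12I1, 8.93 for 29I1 and 8.26 for 43D1 in basal samples. Its mean change was positive at 0.18 ± 0.48 (SE) (limma adjusted p = 0.977), and -0.39 without 09I1. Rfc5 measured 10.05 for 09I1, 8.89 for 11D2, 8.80 for 12I1, 8.74 for 29I1 and 8.42 for 43D1 in final samples and 8.12 for 09I1, 9.03 for 11D2, 8.63 for 12I1, 9.35 for 29I1 and 8.98 for 43D1 in basal samples. Final 09I1 stood far above the other 4 final arrays. Rfc2 and Rfc3 had changes of 1.47 and 1.69 in 09I1, -0.89 and -0.91 in 29I1 and -0.52 and -0.93 in 43D1.

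Polymerase and primase genes had medians of 1.79 for 09I1, -0.18 for 11D2, 0.26 for 12I1, -0.91 for 29I1 and -0.83 for 43D1, and all 7 were lower in 11D2 as well as in 29I1 and 43D1. Subunits of polymerase epsilon, which copies the leading strand, varied the most, with Pole at 2.39 for 09I1, -0.31 for 11D2, 0.11 for 12I1, -1.39 for 29I1 and -1.52 for 43D1 and its partner Pole2 at 2.44 for 09I1, -0.081 for 11D2, -0.090 for 12I1, -1.58 for 29I1 and -0.66 for 43D1. Prim2, the large primase subunit, had 8.20 for 09I1, 7.47 for 11D2, 7.24 for 12I1, 7.16 for 29I1 and 6.40 for 43D1 in final and 6.62 for 09I1, 7.65 for 11D2, 6.96 for 12I1, 7.63 for 29I1 and 6.82 for 43D1 in basal samples. It was the exception among basal arrays, where 11D2 and not 29I1 was highest. The mean change of Prim2 was 0.16 ± 0.31 (SE), and without 09I1 it was -0.20. Pold1, the catalytic subunit of polymerase delta, had 8.07 for 09I1, 7.44 for 11D2, 7.57 for 12I1, 7.18 for 29I1 and 6.95 for 43D1 in final samples and 6.97 for 09I1, 7.79 for 11D2, 7.31 for 12I1, 8.09 for 29I1 and 7.78 for 43D1 in basal samples, with a mean change of -0.15 ± 0.31 (SE). Pola1, Pola2 and Prim1 had changes of 0.80, 1.85 and 1.79 in 09I1, and of -0.54, -1.24 and -0.76 in 29I1. In 43D1 they were at -0.83, -0.97 and -0.64.

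Genes for the proteins that bind single-stranded DNA and finish Okazaki fragments varied least between tumors, with a median SD of the change of 0.63. Their median changes were 0.61 for 09I1, -0.14 for 11D2, 0.34 for 12I1, -0.61 for 29I1 and -0.63 for 43D1, and that of 12I1 was the largest of any role group there. Rpa1, the large subunit of the single-strand binding protein, was the member that departed from the others. Its levels were 8.53 for 09I1, 9.14 for 11D2, 8.90 for 12I1, 8.90 for 29I1 and 8.60 for 43D1 in final samples, against 8.55 for 09I1, 9.17 for 11D2, 9.22 for 12I1, 9.25 for 29I1 and 8.90 for 43D1 in basal samples. It was lower in 5 of 5 tumors, the only member with the same sign in all 5 (2.51% of all genes were lower in all 5), and its SD of the change was 0.16, where the median over members was 1.09. The mean change was -0.21 ± 0.13 (moderated SE of the limma fit, not taken from this SD alone), limma adjusted p = 0.977. Its partner Rpa2 had changes of 0.89 for 09I1, -0.27 for 11D2, 0.41 for 12I1, -0.59 for 29I1 and -0.74 for 43D1, with the signs of the other members in 09I1, 29I1 and 43D1.

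Fen1, the nuclease that trims Okazaki flaps, had 7.32 for 09I1, 7.65 for 11D2, 7.53 for 12I1, 6.80 for 29I1 and 6.36 for 43D1 in final and 6.65 for 09I1, 7.53 for 11D2, 7.26 for 12I1, 8.01 for 29I1 and 7.50 for 43D1 in basal samples. Its final values in 29I1 and 43D1 lay below those of the other 3 final samples, and its highest value was basal 29I1. The mean change of Fen1 was -0.26 ± 0.32 (SE) (limma adjusted p = 0.977). Lig1, the ligase that seals the fragments, had changes of 0.56 for 09I1, -0.25 for 11D2, 0.49 for 12I1, -0.62 for 29I1 and -0.53 for 43D1.

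Genes of nucleotide supply had medians of 1.40 for 09I1, 0.0025 for 11D2, 0.16 for 12I1, -1.16 for 29I1 and -1.09 for 43D1. Rrm1, the large subunit of ribonucleotide reductase, measured 9.36 for 09I1, 9.37 for 11D2, 9.16 for 12I1, 8.68 for 29I1 and 8.13 for 43D1 in final samples, against 8.12 for 09I1, 9.35 for 11D2, 8.94 for 12I1, 9.73 for 29I1 and 9.17 for 43D1 in basal samples. Final 29I1 and 43D1 lay below the other 3 final samples, and the highest value was basal 29I1. The mean change of Rrm1 was -0.12 ± 0.34 (SE), limma adjusted p = 0.977. Dut, which removes dUTP from the pool, was 10.88 for 09I1, 10.31 for 11D2, 10 for 12I1, 9.59 for 29I1 and 9.46 for 43D1 in final and 9.61 for 09I1, 10.33 for 11D2, 10.01 for 12I1, 10.53 for 29I1 and 10.12 for 43D1 in basal samples, with a mean change of -0.073 ± 0.31 (SE). Its dimmer second probe set was lower in 5 of 5 tumors. Tyms, which makes thymidylate, had changes of 1.52 for 09I1, 0.19 for 11D2, 0.74 for 12I1, -1.27 for 29I1 and -1.63 for 43D1, and its 12I1 value was the largest of any member in that tumor. Tk1, the thymidine salvage kinase, had 2.15 in 09I1, -1.63 in 29I1 and -1.13 in 43D1.

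Chromatin-copying genes had medians of 1.64 for 09I1, -0.19 for 11D2, 0.22 for 12I1, -1.34 for 29I1 and -1.29 for 43D1. Uhrf1, which reads half-methylated DNA behind the fork, had 7.91 for 09I1, 7.87 for 11D2, 7.64 for 12I1, 6.50 for 29I1 and 5.52 for 43D1 in final samples and 6.27 for 09I1, 7.76 for 11D2, 7.25 for 12I1, 7.98 for 29I1 and 7.69 for 43D1 in basal samples. Its final value in 43D1 was the lowest of the 10, and 4.52-fold lower than its basal value on the linear scale. The mean change was -0.31 ± 0.53 (SE) (limma adjusted p = 0.977). Chaf1b, a subunit of the histone chaperone CAF-1, had 7.44 for 09I1, 6.54 for 11D2, 6.52 for 12I1, 6.00 for 29I1 and 5.60 for 43D1 in final and 5.97 for 09I1, 6.96 for 11D2, 6.31 for 12I1, 7.34 for 29I1 and 6.59 for 43D1 in basal samples. Its partner Chaf1a had changes of 1.65 for 09I1, -0.19 for 11D2, -0.018 for 12I1, -1.15 for 29I1 and -1.29 for 43D1, and those of Chaf1b were 1.47 for 09I1, -0.42 for 11D2, 0.22 for 12I1, -1.34 for 29I1 and -0.99 for 43D1.

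The S-phase entry genes cyclin E1 (Ccne1), cyclin E2 (Ccne2) and E2f1 had the lowest median of any role group in 43D1, with 2.38 for 09I1, 0.021 for 11D2, -0.20 for 12I1, -1.54 for 29I1 and -1.74 for 43D1. Ccne1 measured 7.96 for 09I1, 6.78 for 11D2, 6.55 for 12I1, 5.79 for 29I1 and 4.74 for 43D1 in final samples, against 5.58 for 09I1, 6.96 for 11D2, 6.83 for 12I1, 7.38 for 29I1 and 6.48 for 43D1 in basal samples. Ccne2 had 8.38 for 09I1, 7.33 for 11D2, 6.86 for 12I1, 6.28 for 29I1 and 4.97 for 43D1 in final and 5.99 for 09I1, 7.23 for 11D2, 7.06 for 12I1, 7.82 for 29I1 and 7.19 for 43D1 in basal samples. For both cyclins the highest and the lowest of the 10 values were final arrays, of 09I1 and 43D1, and the basal values lay between them. Mean changes were -0.28 ± 0.57 (SE) for Ccne1 and -0.29 ± 0.61 (SE) for Ccne2, with limma adjusted p of 0.977 for Ccne1 and 0.977 for Ccne2. In 43D1 the final level was 3.34-fold lower for Ccne1 and 4.66-fold lower for Ccne2 on the linear scale. A dimmer second probe set of Ccne2 was at 0.78 in 29I1, where the brighter one was at -1.54. E2f1, a transcription factor of the family for which the searched words are named, had 6.96 for 09I1, 6.59 for 11D2, 6.24 for 12I1, 5.62 for 29I1 and 4.80 for 43D1 in final samples and 5.50 for 09I1, 6.57 for 11D2, 6.02 for 12I1, 6.87 for 29I1 and 6.20 for 43D1 in basal samples. Like nearly all members it was higher in final 09I1 and lower in final 29I1 and 43D1, with changes of 1.47 for 09I1, 0.021 for 11D2, 0.22 for 12I1, -1.25 for 29I1 and -1.40 for 43D1 and a mean of -0.19 ± 0.42 (SE) (limma adjusted p = 0.977).

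**Figure D4:**
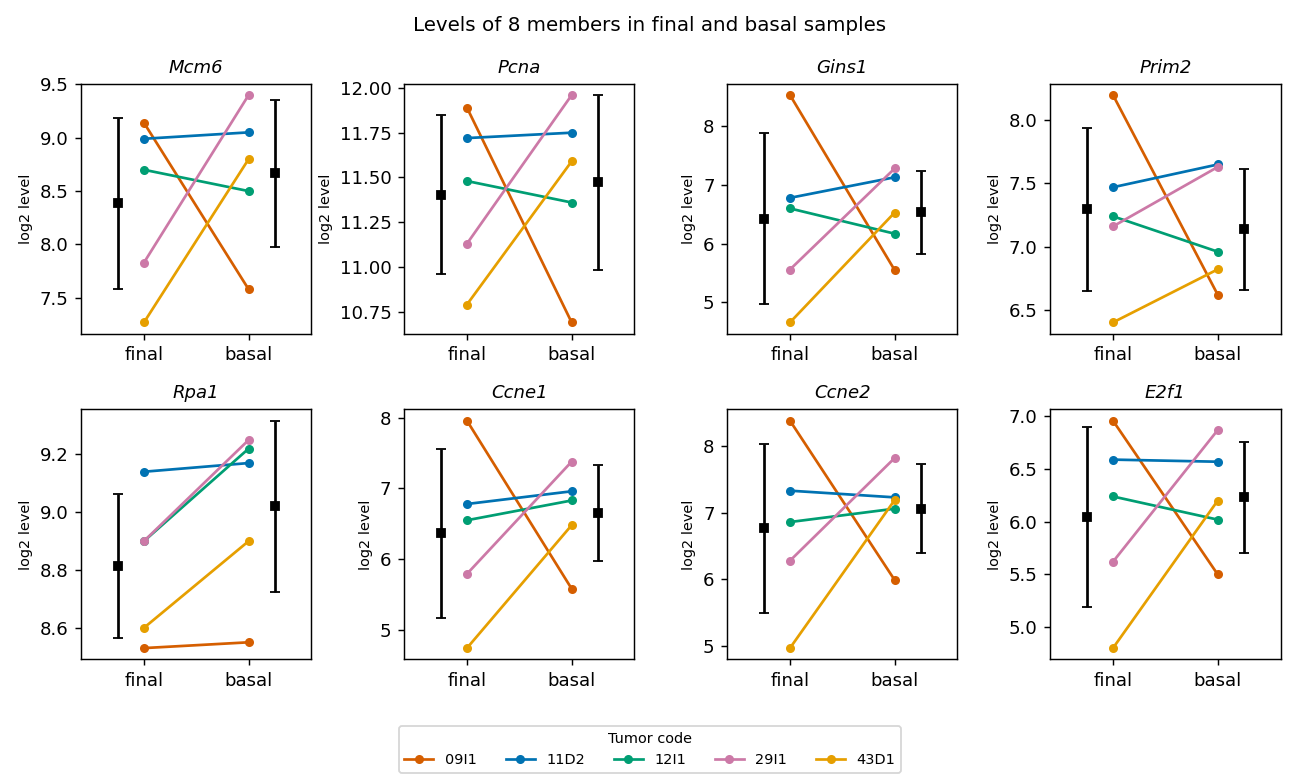
Log2 level of 8 members in final (left) and basal (right) samples, with a line for each tumor and the mean ± SD over 5 samples in black. The lines of 09I1 run opposite to those of 29I1 and 43D1 in all panels but that of Rpa1, where the 09I1 line is nearly flat.

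Changes were also set beside the E2F words of the start-site windows. The median changes for the 15 with a word were 1.57 in 09I1, -1.27 in 29I1 and -1.20 in 43D1. For the 19 measured members with a window but no word they were 1.58, -1.09 and -0.83 in the same tumors, and this difference was not tested.

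Other genes of replication, nucleotide synthesis and G1/S control had medians of the same sign in 09I1, 29I1 and 43D1, all closer to 0. Of 28 further replication genes, 0 passed in either direction, and their medians were 0.60 for 09I1, -0.13 for 11D2, 0.12 for 12I1, -0.48 for 29I1 and -0.55 for 43D1. In 09I1 25 of the 28 were higher (58.6% of all genes), up to 3.29. In 29I1 27 were lower (54.3% of all genes), down to -2.02, and in 43D1 26 (51.1%), down to -2.16. The genes named from each list had the smallest p over the 5 tumors, a choice that favors like changes in all tumors. Timeless, of the fork protection complex, had a mean change of -0.55 ± 0.39 (SE), and -0.99 without 09I1, the 1 tumor where it was higher. Mcm8, a relative of the MCM subunits, was at -0.37, and -0.58 without 09I1, again the 1 tumor where it was higher. Top1, topoisomerase I, was at -0.22 and lower in 5 of 5. Of 15 further nucleotide synthesis genes, 0 passed, with medians of 0.59 for 09I1, -0.11 for 11D2, -0.00073 for 12I1, -0.42 for 29I1 and -0.67 for 43D1. Of the 15, 11 were higher in 09I1, and 14 were lower in 29I1 and 14 in 43D1. Ctps1, which makes CTP, was lower in 5 of 5 tumors with a mean of -0.63 (limma adjusted p = 0.977), Ppat, of purine synthesis, was at -0.52 (-0.28 without 09I1) and Shmt1, of one-carbon metabolism, at -0.21.

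Of 20 further G1/S regulators, 0 passed, with medians of 0.22 for 09I1, -0.050 for 11D2, 0.091 for 12I1, -0.52 for 29I1 and -0.51 for 43D1. In 09I1 13 of the 20 were higher (58.6% of all genes), up to 2.74. In 29I1 17 were lower (54.3% of all genes), down to -2.14, and in 43D1 16 (51.1%), down to -2.32. E2f2, a relative of E2f1, differed from it by tumor. Its changes were -0.62 for 09I1, -0.28 for 11D2, -0.55 for 12I1, -1.17 for 29I1 and -1.03 for 43D1, all negative, with group means of 7.16 ± 0.27 in final and 7.89 ± 0.29 in basal samples (SD, n = 5 each). Its mean change of -0.73 did not pass (limma adjusted p = 0.859). Fbxw7, which marks cyclin E for destruction, was at -0.47, lower in 4 tumors and at 1.20 in 43D1. Tfdp2, an E2F partner, was at -0.37, with -1.52 in 09I1, and at -0.086 without that tumor.

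Mitosis genes lay further below 0 in the tumors where replication genes were lower. Their medians over 23 genes were 1.48 for 09I1, -0.23 for 11D2, 0.26 for 12I1, -2.00 for 29I1 and -2.40 for 43D1, which in 29I1 and 43D1 compares with replication medians of -1.23 and -0.96, and in 09I1 with a replication median of 1.56. Mki67, a proliferation marker, was at 1.23 in 09I1, -2.00 in 29I1 and -2.69 in 43D1. Top2a, the topoisomerase that adriamycin traps, had 1.14, -1.63 and -2.82 in the same tumors. The mitosis genes with the smallest p were Cenpf at -0.78, Kif23 at -0.69 and Hmmr at -0.56, none of which passed. Without 09I1 they were at -1.16, -1.14 and -0.97. The difference between the 2 sets of genes was not tested.

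**Figure D5:**
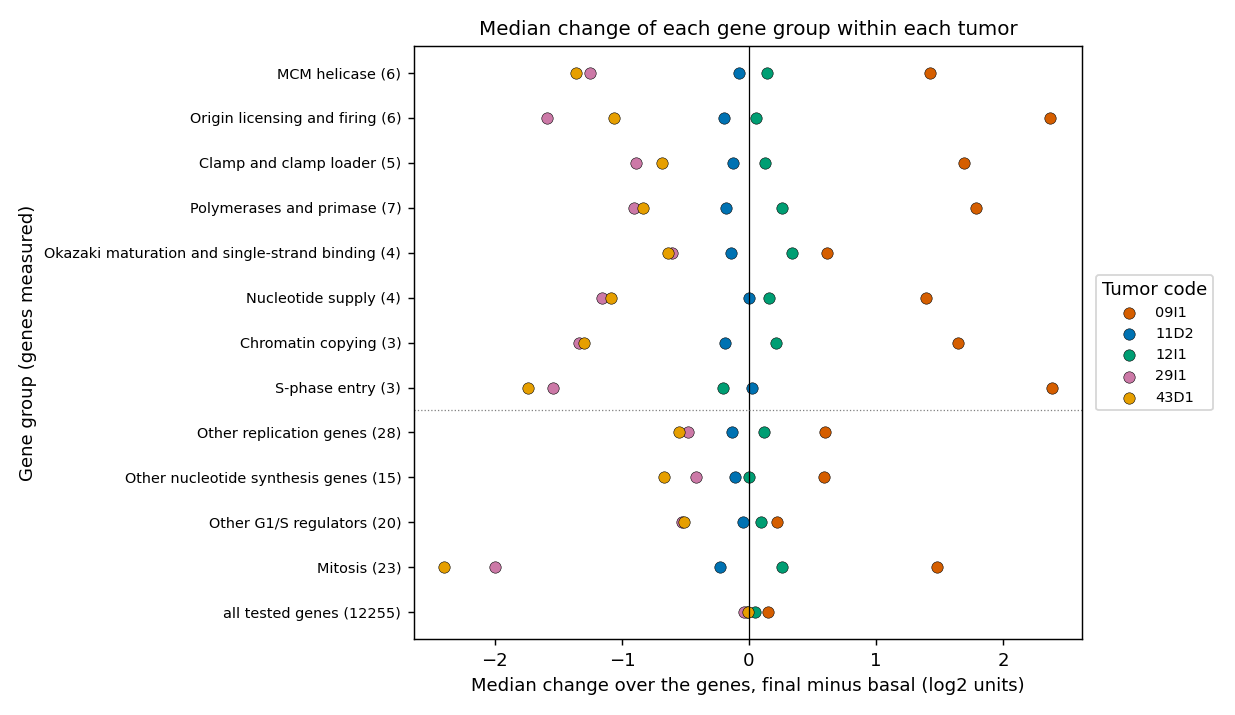
Median change, final minus basal, in log2 units for each role group of members (above the dotted line), for other gene groups and for all tested genes (below), with a point for each tumor code. In every role group 09I1 lies right of 0 and 29I1 and 43D1 lie left of it, and in 29I1 and 43D1 the mitosis genes lie furthest left.

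Markers of the tissue were measured beside these values. All 12 luminal epithelial markers, among them Krt8, Krt18 and Epcam, lay above the filter, with summed intensities of 24061 to 39154 in final and 30090 to 37619 in basal samples. Their median change was -0.54 for 09I1, 0.11 for 11D2, 0.10 for 12I1, 0.36 for 29I1 and 0.30 for 43D1, opposite in sign to the replication genes in 09I1, 29I1 and 43D1. Of 10 macrophage markers, all 10 were lower in 29I1 (median -1.36) and in 12I1 (-0.83), as were 7 in 09I1 (-0.40). All 10 were higher in 43D1 (median 1.03) and in 11D2 (0.86). Their summed intensity ran from 4375 to 9460 in final and 3106 to 14489 in basal samples. T and NK cell markers had 8 of 11 lower in 29I1, and 11 of 11 higher in both 43D1 and 09I1, with sums of 1856 to 3803 in final and 670 to 4989 in basal samples. All 10 fibroblast markers were lower in 29I1 (median -0.98) and 8 of 10 in 43D1 (-0.25) and in 09I1 (-0.51). All 10 were higher in 11D2 (0.99) and in 12I1 (0.73). Their summed intensities were 14336 to 37782 in final and 17902 to 35774 in basal samples. All 7 endothelial markers tested, of 8, were lower in 29I1 (-0.73), with summed intensities of 1076 to 1369 in final and 1014 to 1759 in basal samples. Of 8 adipocyte markers tested, of 9, all were higher in 09I1 (1.12) and in 11D2 (2.50), and 7 were higher in 43D1 (0.69). In 29I1 7 were lower (-1.98), and in 12I1 5 were lower (-0.16). Their summed intensities were 450 to 2644 in final and 391 to 2561 in basal samples. All 7 myoepithelial markers tested, of 8, were higher in 29I1 (1.20) and lower in 43D1 (-1.04), opposite in sign between these tumors where replication genes were lower in both, with summed intensities of 15641 to 27312 in final and 15315 to 35355 in basal samples. Of 11 skeletal muscle markers tested, of 12, 10 were higher in 11D2 (median 4.65), with summed intensities of 1857 to 13394 in final and 1585 to 4153 in basal samples. All 6 erythroid markers tested, of 7, were lower in 09I1 (-0.89), 11D2 (-1.20) and 12I1 (-2.45), with summed intensities of 715 to 10065 in final and 2777 to 22731 in basal samples. Only 2 of 6 B cell markers lay above the filter, with summed intensities of 33 to 56 in final and 39 to 57 in basal samples. In 29I1 the macrophage, fibroblast, endothelial, adipocyte and T and NK cell medians were thus below 0 together with the replication genes. The part of these cell types in the replication values was not tested.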

How the data were processed

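Intensities from Affymetrix Rat Genome 230 2.0 arrays were normalized by the authors with Robust Multichip Average, per the labels' protocols. The deposited table is on a log2 scale, judged from its range, and holds 31099 probe sets, 57 of them controls. The filter on near-background signals described in the design text is not part of this table. The platform annotation gave 20832 probe sets 1 symbol and 436 several. The number of arrays limits the precision.

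Here control probe sets and the lowest 25% by mean over all 10 arrays were left out (23281 remained). The difference, final minus basal, came from limma 3.58.1 (R 4.3.3) with a block for the tumor, an intensity trend and Benjamini-Hochberg adjustment over all tested probe sets (threshold 0.05, two-sided). Each SE is the moderated SE of this fit, with the gene's variance drawn towards that of probe sets of like intensity. The code was tested on simulated data. A gene took its brightest probe set. All members are named. All 10 values are given for Mcm2, Mcm6, Pcna, Ccne1, Ccne2, E2f1 and the 2 members of each role group with the smallest p, to which Gins1 was added after its values were seen. Of each further pathway list the 3 genes with the smallest p are named, with Mki67 and Top2a. Members and lists were chosen with earlier results of these data known.

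The pairing comes from the tumor codes in the labels. As a check, deviations from the group means of the 2 samples of a tumor correlated at 0.072 for 09I1, 0.095 for 11D2, 0.014 for 12I1, -0.15 for 29I1 and 0.22 for 43D1. Samples of different tumors were not compared in this way, so these values cannot show whether the pairing is right. Promoter windows are from RefSeq (GRCr8), matched by symbol, and the E2F search was chosen after the data were seen. Alternatives were no block or a random block, other filters, cyclic loess, centring on the array median, array weights, no trend, the methods' paired t-test, averaging a gene's probe sets and leaving out each tumor. Figures were drawn with matplotlib 3.10.9.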

Additional observations from a re-analysis of the deposited data

Results flagged for a closer look

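Among 114 sets of 5 values (final levels, basal levels and changes of 38 members), 3 had a sample far from the other 4 by Dixon's test, where chance gives about 5.7. All 3 involve the final array of 09I1. Orc6 measured 8.68 in the final sample of 09I1, against 6.22 to 6.92 in the other 4 final samples. Rfc5 measured 10.05 in the final sample of 09I1, against 8.42 to 8.89. The change of Cdc45 was 2.39 in 09I1, against -1.28 to -0.23 in the other tumors.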

How the results depend on the processing

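The number of members past the threshold was 0, and so was the number of probe sets, in the paired fit and under all alternatives run. Without the replicate block the members' median was -0.11, which in this balanced design equals that of the paired fit by construction. The block changed no call. Median changes of the members in each tumor kept their sign under cyclic loess, centring and the mean over probe sets, but that of 12I1 was 0.060 after centring, against 0.13, and the median over all genes there was -0.020, against 0.050. Array weights gave 09I1 the lowest weight. With them the members' median was -0.36, and all 38 members were below 0 (share of all genes not given here). With 09I1 left out it was -0.56, with 29I1 left out 0.095 and with 43D1 left out 0.11, so its sign rests on which tumors are counted. Unadjusted p-values under 0.05 numbered 935 of 23281 probe sets, 1868 without 09I1, 2440 with array weights and 608 to 1076 without any 1 of the other tumors.

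Single members changed sign as follows, none of them past the threshold in any setting. With array weights Orc6 was at -0.37, Rfc2 was at -0.23, Rfc4 was at -0.15, Rfc5 was at -0.17, Prim1 was at -0.19, Prim2 was at -0.14 and Pole2 at -0.34. Pole2 was at -0.0025 with cyclic loess, Mcm2 at 0.00080 after centring, and with the mean over probe sets Orc6 was at -0.046 and Ccne2 at 0.010. With each tumor left out in turn, changes ranged over Mcm2 -0.43 to 0.23, Mcm3 -0.58 to 0.059, Mcm5 -0.80 to 0.048, Mcm6 -0.74 to 0.040, Orc6 -0.61 to 0.37, Cdt1 -0.84 to 0.18, Mcm10 -0.55 to 0.080, Cdc45 -0.68 to 0.24, Gins1 -0.88 to 0.33, Pcna -0.39 to 0.12, Rfc2 -0.35 to 0.24, Rfc3 -0.47 to 0.18, Rfc4 -0.39 to 0.49, Rfc5 -0.28 to 0.35, Pola1 -0.33 to 0.076 and Pola2 -0.56 to 0.21. For the others they ranged over Prim1 -0.31 to 0.33, Prim2 -0.20 to 0.32, Pold1 -0.46 to 0.045, Pole -0.78 to 0.20, Pole2 -0.60 to 0.40, Lig1 -0.23 to 0.069, Rpa2 -0.30 to 0.11, Rrm1 -0.46 to 0.11, Tyms -0.49 to 0.30, Tk1 -0.67 to 0.27, Dut -0.41 to 0.15, Uhrf1 -0.79 to 0.16, Chaf1a -0.66 to 0.073, Chaf1b -0.63 to 0.071, Ccne1 -0.95 to 0.081, Ccne2 -0.96 to 0.19 and E2f1 -0.60 to 0.11. The sign was kept with every tumor left out in turn for Mcm4, Mcm7, Orc1, Fen1, Rpa1. Final and basal title codes are numbered apart, no detection calls were used here, and 1 array per tumor and time leaves differences between tumors without a test.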

Other observations

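Of the 38 members, 8 had several probe sets, 12 in addition to those used. These further probe sets had the sign of the brightest one in 11 of 12 cases in 09I1 and in 43D1 and in 10 of 12 in 29I1. In 11D2 it was 11 of 12, and in 12I1 8 of 12. The exception in 09I1 was a second probe set of Dut, which had changes of -0.12 for 09I1, -0.66 for 11D2, -0.35 for 12I1, -1.05 for 29I1 and -1.59 for 43D1. A second probe set of Tk1 was at -2.46 in 29I1 and -2.06 in 43D1, against -1.63 and -1.13 for the one used. In 09I1 both were higher in the final sample, at 1.41 for this probe set against 2.15. The signs differed in 12I1, at -0.10 against 0.094, and in 11D2, at 0.072 against -0.019. A dimmer probe set of Ccne2 was at 0.78 in 29I1, against -1.54 for the brighter one. The Cdc45 probe set that went against the others in 43D1, at 0.46, lay below the filter.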
